A study of Mus musculus with 6 samples.

Results

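TH2B, the testis form of histone H2B, takes the place of much of the somatic protein in meiotic germ cells, and it stays in chromatin until histones are removed from the maturing spermatid. The regions described here are 35 stretches of mouse autosomes, each a 10 Mb bin, that held many islands of tagged TH2B and few islands of native TH2B. They were chosen by the counts of islands themselves. The 19 autosomes of the mouse build mm9 were divided into 10 Mb bins from 0, and islands were counted by their midpoints. A bin was kept when it had at least 10 wild-type islands and when the spermatocyte count and the round spermatid count were each at least 3 times the wild-type count. Of 253 bins with at least 10 wild-type islands, 35 were kept, which is 13.8%. Kept bins held 7341 of the 46507 islands of the 3 lists.

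An island is a broad stretch of DNA with more ChIP reads than control reads, built by joining neighbouring windows. In Th2b+/tag mice one copy of the gene carries a C-terminal His, Flag and Ha tag, and ChIP with an anti-HA antibody therefore saw the tagged copy alone. The cells were spermatocytes, which are in meiosis, and round spermatids, which have completed it, separated on a BSA gradient. For the native protein, total male germ cells of adult wild-type mice, a mixture of stages, were used with an anti-TH2B antibody. Each of these 3 groups had 1 ChIP library and 1 input, so there was no replicate error and no test. The 95% intervals below cover counting error only. Mice, cells and antibody all differ between the tagged and the wild-type lists, so their parts in any difference between these lists cannot be told apart. The wild-type input carries the TH2B antibody in its labels and was taken as an input from its title. No ChIP of untagged cells with anti-HA was analysed here.

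Mammalian chromosomes are built of megabase domains that differ in gene content, base composition, compaction and time of replication. Counts in bins of 10 Mb describe chromatin at that scale, above the scale of single promoters or enhancers. No sequence or gene annotation of mm9 was used here, so the bins are given by position only, and their genes and base composition were not analysed.

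The kept bins covered 345 Mb, 13.97% of the 2472 Mb of autosomes. They held 3407 spermatocyte islands, 22.8% of the autosomal islands of that list, and 3262 round spermatid islands, 19.8%. They held 672 wild-type islands, 5.03% of the list. Per Mb there were 9.87 spermatocyte, 9.45 round spermatid and 1.95 wild-type islands in the kept bins, beside 5.43, 6.199 and 5.97 in all other autosomal bins. The rule asked for tagged islands in excess of wild-type ones, and both sides of that excess were visible: tagged counts were above, and wild-type counts below, those of the other bins. Spermatocyte islands covered 3.66% of the kept bins and 2.08% of the others, round spermatid islands 3.36% and 2.28%, and wild-type islands 0.503% and 1.65%. The reads behind the islands of the kept bins were 375700 ChIP and 288399 control reads for spermatocytes, 415469 and 301135 for round spermatids, and 79102 and 52864 for the wild-type list.

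Counts in single kept bins ran from 41 to 161 spermatocyte islands (median 94), from 55 to 185 round spermatid islands (median 86) and from 10 to 35 wild-type islands (median 18). In the 218 other bins with at least 10 wild-type islands the medians were 50, 59 and 57.5. All 3 counts of the kept bins overlapped those of the other bins, which reached 131 spermatocyte and 127 round spermatid islands and started at 11 wild-type islands. Across the 253 bins, which share their libraries and are not replicates, the counts of the tagged lists rose together (Pearson r 0.872, Spearman rho 0.875). Spermatocyte counts fell with wild-type counts (r -0.439, rho -0.450), and so did round spermatid counts (r -0.350, rho -0.374). Kept bins are the upper left corner of that relation. The opposite corner, with wild-type counts at least 3 times both tagged counts, held 27 bins.

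**Figure D1:**
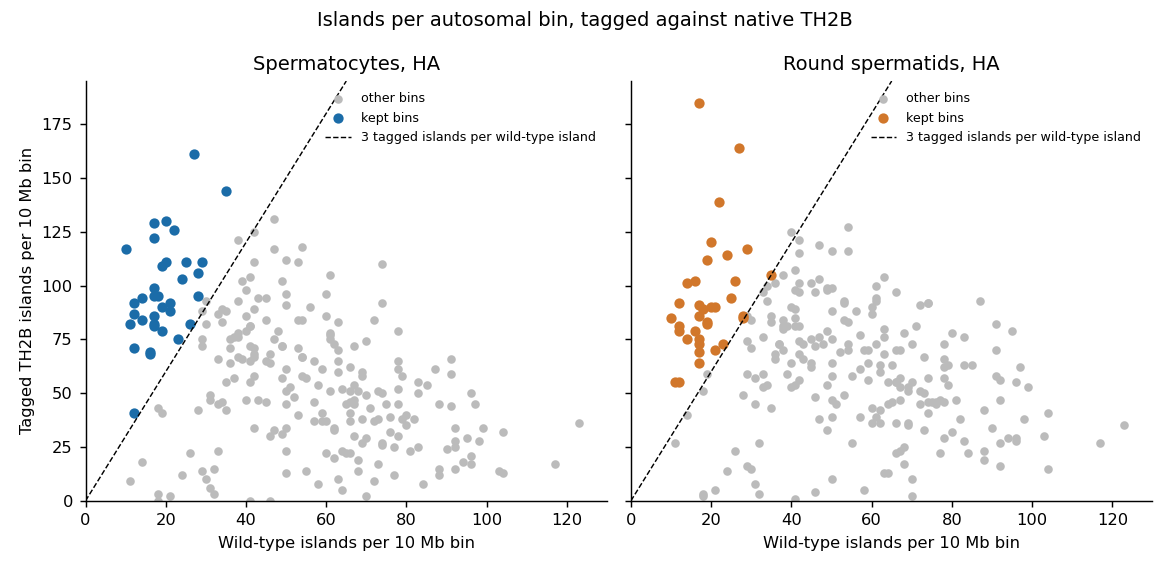
Each point is 1 of the 253 autosomal 10 Mb bins with at least 10 wild-type islands; the horizontal axis gives its wild-type islands and the vertical axis its tagged islands, in spermatocytes on the left and round spermatids on the right. The 35 kept bins, in colour, lie on or above the dashed line of 3 tagged islands per wild-type island, at 10 to 35 wild-type islands.

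Kept bins lay on 15 of the 19 autosomes, and chromosomes 9, 11, 18 and 19 had none. Chromosome 1 had the most, with 6 of its 20 bins that met the minimum of wild-type islands, followed by chromosome 3 with 5 of 16. Chromosomes 14, 15 and 16 had 3 each, of 12, 11 and 9 such bins. Of the kept bins 1 was the first of its chromosome and 1 was the last. Each of the 19 autosomes has 1 first and 1 last bin among the 258 autosomal bins, so most bins, kept or not, lay away from the ends.

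On chromosome 1 the first 3 bins were all kept. From 0 to 10 Mb there were 68 spermatocyte, 102 round spermatid and 16 wild-type islands, from 10 to 20 Mb 111, 117 and 29, and from 20 to 30 Mb 103, 114 and 24. Farther along, the bin from 100 to 110 Mb held 161, 164 and 27 islands, in the same order, and its neighbour from 110 to 120 Mb held 129, 185 and 17. The last kept bin of chromosome 1, from 140 to 150 Mb, held 126, 139 and 22. These bins included the highest counts of both tagged lists among kept bins, 161 in spermatocytes and 185 in round spermatids.

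Chromosome 3 had kept bins from 10 to 20 Mb (82 spermatocyte, 69 round spermatid and 17 wild-type islands), from 20 to 30 Mb (82, 102 and 26) and from 40 to 50 Mb (71, 92 and 12). It had others from 70 to 80 Mb (88, 90 and 21) and from 110 to 120 Mb (111, 120 and 20). On chromosome 2 the bins from 40 to 50 Mb (144, 105 and 35) and from 80 to 90 Mb (84, 75 and 14) were kept. The former sat on the threshold, with exactly 3 round spermatid islands per wild-type island.

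The kept bin with the highest spermatocyte ratio was on chromosome 4, from 70 to 80 Mb, where 117 spermatocyte and 85 round spermatid islands stood beside 10 wild-type islands (11.7 and 8.50 per wild-type island). The highest round spermatid ratio among kept bins, 10.9, was that of chromosome 1 from 110 to 120 Mb. A second kept bin of chromosome 4 ran from 20 to 30 Mb (95, 89 and 18). Chromosome 5 had a kept bin from 80 to 90 Mb (87, 79 and 12), and chromosome 7 from 60 to 70 Mb (75, 73 and 23). On chromosome 6 they were the bins from 10 to 20 Mb (86, 64 and 17) and from 60 to 70 Mb (109, 112 and 19). Chromosome 8 had adjoining kept bins from 50 to 60 Mb (82, 55 and 11) and from 60 to 70 Mb (79, 83 and 19).

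The bin of chromosome 10 ran from 100 to 110 Mb (122, 86 and 17). On chromosome 12 the bins from 40 to 50 Mb (92, 70 and 21) and from 60 to 70 Mb (94, 101 and 14) were kept, and on chromosome 13 the bin from 80 to 90 Mb (92, 81 and 12). Chromosome 14 had bins from 80 to 90 Mb (99, 75 and 17), from 100 to 110 Mb (90, 82 and 19) and from 110 to 120 Mb (106, 85 and 28). Those of chromosome 15 ran from 10 to 20 Mb (69, 79 and 16), from 20 to 30 Mb (95, 91 and 17) and from 40 to 50 Mb (81, 73 and 17). On chromosome 16 the bins from 50 to 60 Mb (95, 86 and 28), from 70 to 80 Mb (130, 90 and 20) and from 80 to 90 Mb (111, 94 and 25) were kept. The bin of chromosome 17 from 90 Mb to the end, 5.27 Mb long, had the lowest spermatocyte count of all kept bins (41, 55 and 12).

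**Figure D2:**
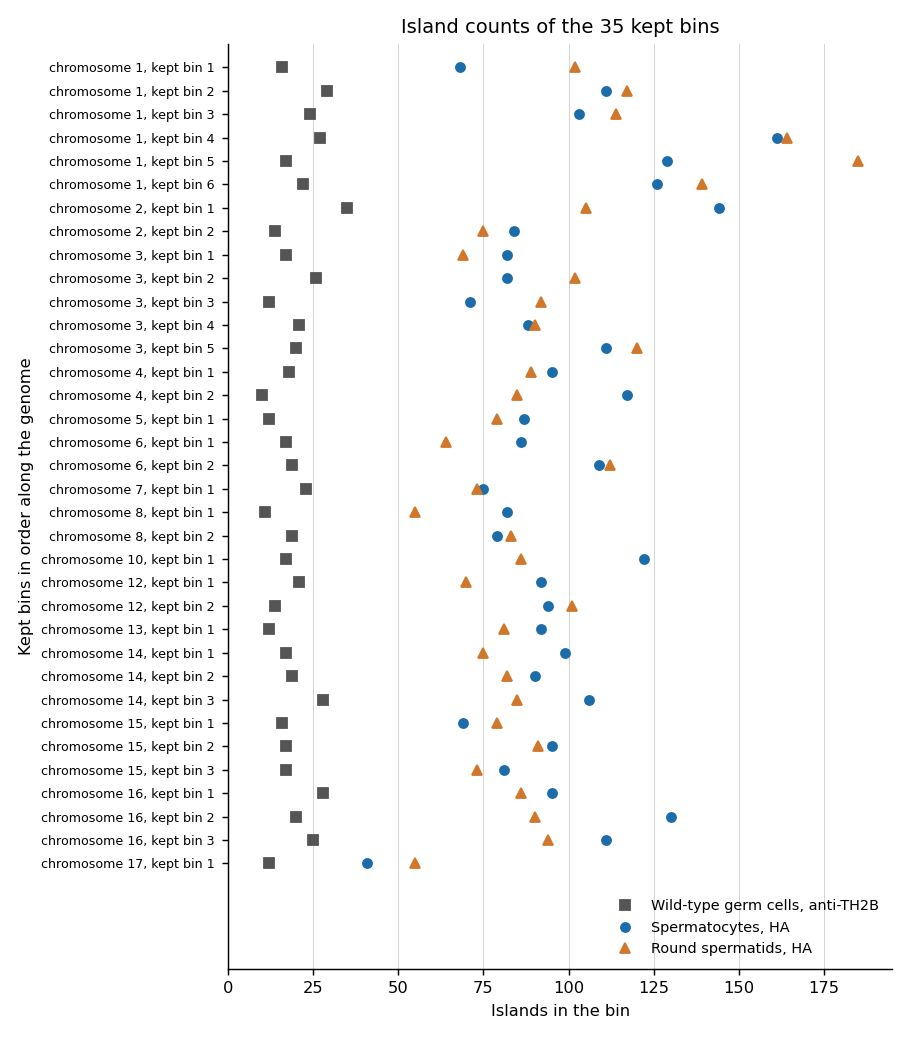
Island counts of the 35 kept bins, 1 row a bin in order along the genome, with wild-type counts as grey squares, spermatocyte counts as blue circles and round spermatid counts as orange triangles. Wild-type counts stay between 10 and 35 in every row, and all 6 bins of chromosome 1 have the orange triangle to the right of the blue circle.

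The kept bins fell into 27 runs, and 15 of them adjoined another kept bin, in 7 runs. Runs on chromosomes 14 and 16 were broken only by bins that the minimum of wild-type islands left out. From 90 to 100 Mb on chromosome 14 there were 97 spermatocyte and 83 round spermatid islands beside 8 wild-type ones, and from 60 to 70 Mb on chromosome 16 there were 104 and 93 beside 6. Their ratios were 12.1 and 10.4 on chromosome 14 and 17.3 and 15.5 on chromosome 16. All but the 10.4 were above the highest ratio of the same list in a kept bin. With these bins the stretch of tagged excess ran from 80 to 120 Mb on chromosome 14 and from 50 to 90 Mb on chromosome 16. In both bins together the median wild-type fold was 1.86 over 14 islands, with a wide interval of 1.54 to 2.62.

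Bins just inside the threshold were chromosome 2 from 40 to 50 Mb, chromosome 14 from 110 to 120 Mb and chromosome 16 from 50 to 60 Mb, with smaller ratios of 3, 3.04 and 3.07. Just outside lay chromosome 3 from 60 to 70 Mb (93, 84 and 30 islands, smaller ratio 2.80), chromosome 12 from 90 to 100 Mb (121, 105 and 38, 2.76) and chromosome 5 from 40 to 50 Mb (125, 115 and 42, 2.74). Next were chromosome 6 from 70 to 80 Mb (87, 97 and 33, 2.64) and chromosome 10 from 30 to 40 Mb (89, 93 and 34, 2.62). The ratios ran on across the threshold without a wide gap.

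Bins around the kept ones were read by their distance from them. The rule used these counts, so a step in them at the edge of a kept bin was set by the choice. The 47 bins next to a kept bin had 6.56 spermatocyte, 6.91 round spermatid and 5.30 wild-type islands per Mb, and the 31 bins 1 step farther had 5.61, 6.56 and 5.83. All bins beyond, or on chromosomes with no kept bin, had 5.0, 5.87 and 6.23. Spermatocyte islands per wild-type island were thus 5.07 in kept bins, 1.24 in the bins next to them, 0.962 a further bin away and 0.803 beyond. The ratio in neighbours lay between that of the kept bins and that of distant bins.

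Windows of 1 Mb show how the islands counted by the rule were spread within the kept bins. They re-read the counts that chose the bins, so the higher share in kept bins is a description and supports nothing. Of 346 windows of 1 Mb, both tagged lists had more islands than the wild-type list in 315, or 91.0%, beside 34.7% of the 2136 windows in other autosomal bins. The wild-type list had no island in 92 of the 346 windows, whereas spermatocytes had none in 7 and round spermatids in 5. The window with most tagged islands was chromosome 1 from 101 to 102 Mb, with 29 spermatocyte, 26 round spermatid and 3 wild-type islands. Another on chromosome 1, from 116 to 117 Mb, held 22, 24 and 0. Chromosome 2 from 43 to 44 Mb held 29, 14 and 4.

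Wild-type islands outnumbered both tagged lists in 6 of the 346 windows. Those with most wild-type islands were the last Mb of the bin of chromosome 2, from 49 to 50 Mb (3 spermatocyte, 2 round spermatid and 11 wild-type islands), and chromosome 14 from 118 to 119 Mb (2, 4 and 10). Chromosome 3 from 27 to 28 Mb held 3, 3 and 7. The 2 former windows, and the window after the second of them (3, 2 and 5), lay in the last 2 Mb of their bins.

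Round spermatid and spermatocyte counts differed among kept bins. The round spermatid list is the larger, with 16447 autosomal islands beside 14956, so equal counts are not a neutral point. Round spermatids had the lower count in 20 of the 35 kept bins and the higher count in 15. In the 218 other bins with at least 10 wild-type islands they had the higher count in 151 and the lower in 60. Summed over the kept bins there were 0.957 round spermatid islands per spermatocyte island (interval 0.912 to 1.005), beside 1.15 (1.12 to 1.18) in those 218 bins. Both counts entered the rule, so this is a description. Single bins ran from 0.671 on chromosome 8 from 50 to 60 Mb to 1.5 on chromosome 1 from 0 to 10 Mb.

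Chromosome 1, singled out after the values were seen, differed in this from the other kept bins. All 6 of its kept bins had more round spermatid than spermatocyte islands, 821 against 698, a ratio of 1.18 (1.06 to 1.30). So did 13 of its 14 other bins, with a ratio of 1.34 (1.23 to 1.46). In the 29 kept bins of other chromosomes round spermatids were higher in 9, and 2441 round spermatid islands stood against 2709 in spermatocytes, a ratio of 0.901 (0.853 to 0.952). The interval of the chromosome 1 kept bins held the 1.15 of the 218 other bins, and that of the 29 lay below it. The tagged islands of the chromosome 1 bins also had denser inputs. Their median was 23.7 control reads per kb in spermatocytes and 27.3 in round spermatids, beside 22 and 24.4 in the other kept bins and 23.1 and 25.6 in the other 14 bins of chromosome 1. Their median folds were 1.47 and 1.41, beside 1.55 and 1.5 in the other kept bins and 1.46 and 1.45 in the rest of chromosome 1. The part of input density in the counts of these bins was not tested.

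Islands of the kept bins were compared with all other autosomal islands of the same list in fold, length and input density. Fold is ChIP over control reads, scaled by 1 constant per list, as deposited by the authors. These values come from the lists that chose the bins, and they are described without a test. The median fold in spermatocytes was 1.53 in kept bins (interval 1.52 to 1.54) and 1.51 elsewhere. In round spermatids it was 1.47 in both (1.471 and 1.466). The widest gap was in wild-type germ cells, with 1.52 (1.48 to 1.54) in kept bins and 1.45 elsewhere.

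Strong islands were counted at a fold of at least 2. Of the spermatocyte islands in kept bins 370 of 3407 passed it, 10.9% (9.83 to 11.95), beside 9.10% of all autosomal islands of that list. Of the round spermatid islands 233 of 3262 did, 7.14% (6.28 to 8.08), beside 6.60%. Among wild-type islands 64 of 672 did, 9.52% (7.41 to 12), beside 6.25%. The share of the whole list lay inside the interval in round spermatids and below it in the other lists. The gap was smaller beside 32 other bins with as few wild-type islands (10 to 35). Their shares were 10% in spermatocytes, 6.91% in round spermatids and 8.23% in the wild-type list, each inside the interval of the kept bins. In 91 other bins with like cover by tagged islands they were 8.93%, below the interval, and 6.43% and 7.47%, inside it.

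Island length differed little. Median lengths were 3600 bp in kept and other bins for spermatocytes, 3200 and 3400 bp for round spermatids, and 2400 and 2600 bp for the wild-type list. Islands are built of 200 bp windows, so each of the last 2 gaps is a single window. Median ChIP reads per island were 101 and 104 for spermatocytes, 114 and 117 for round spermatids, and 111 and 120 for the wild-type list.

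**Figure D3:**
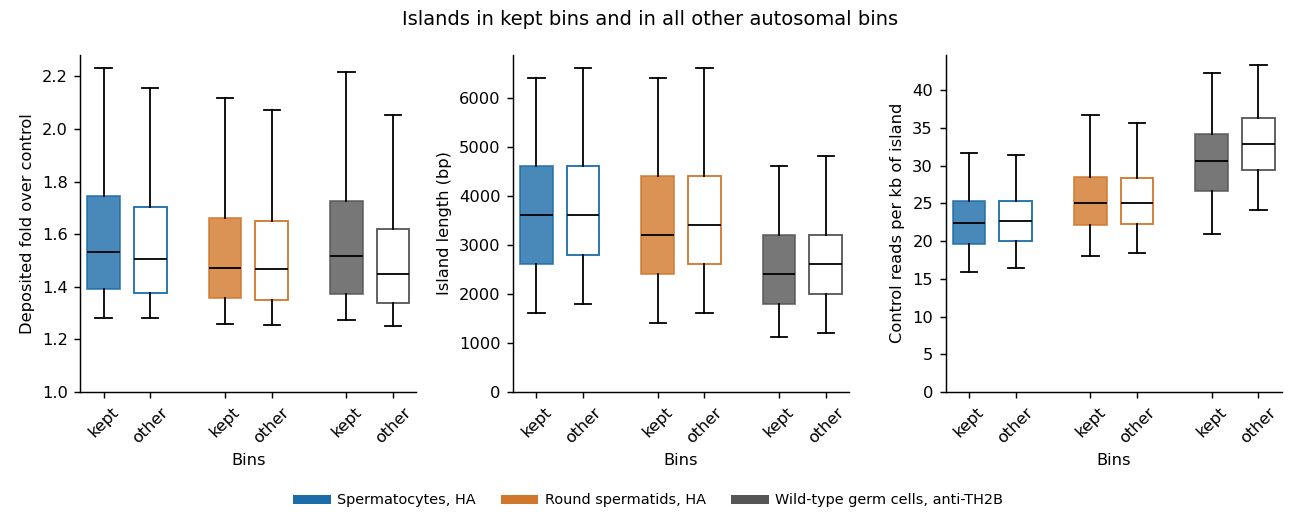
Deposited fold, length in bp and control reads per kb of islands in kept bins (filled) and in all other autosomal bins (open), for the 3 lists. The line is the median, the box the 25th to 75th percentile and the whiskers the 5th to 95th; the fold axis starts at 1. The grey pair, wild-type germ cells, shows the widest gaps, with medians of 30.6 and 32.9 control reads per kb.

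Input density, the control reads per kb of an island, differed most in the wild-type list. In wild-type islands its median was 30.6 reads per kb in kept bins (30 to 31.4) and 32.9 elsewhere. In spermatocyte islands it was 22.3 and 22.6, and in round spermatid islands 25 in both. Densities can be set side by side only within a list, since the depth of the inputs outside islands is unknown. The low wild-type value was common to nearly all kept bins: the bin's median was below 32.9 in 32 of 35 and above it in 2, on chromosome 5 from 80 to 90 Mb (34.5) and chromosome 16 from 80 to 90 Mb (32.92). Among the 218 other bins with at least 10 wild-type islands it was below in 128. Medians of kept bins rest on fewer wild-type islands, 18 a bin at the median beside 57.5 in these 218 bins, and can scatter more for that alone. In 8 kept bins the median was lower than in every one of the 218 bins. The lowest were chromosome 3 from 40 to 50 Mb, with 25.8 reads per kb over 12 islands, and chromosome 10 from 100 to 110 Mb, with 26.7 over 17.

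Across all 250 bins that met the minimum and had islands in each list, the smaller tagged ratio of a bin, on a log2 scale, fell with the density of the wild-type input in its islands (Pearson r -0.587, Spearman rho -0.627). With the density of the spermatocyte input r was -0.179 and rho -0.179, and with that of the round spermatid input -0.261 and -0.248. The ratio also rose with the median wild-type fold of the bin (r 0.468, rho 0.464). Bins share their libraries and their neighbours, and these values are descriptions. The relation was closest for the wild-type input. Wild-type islands are also the denominator of the ratio, and these densities come from the same islands, so the lists did not enter this comparison on equal terms. Whether the input was also thin between islands is not known from lists of islands.

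**Figure D4:**
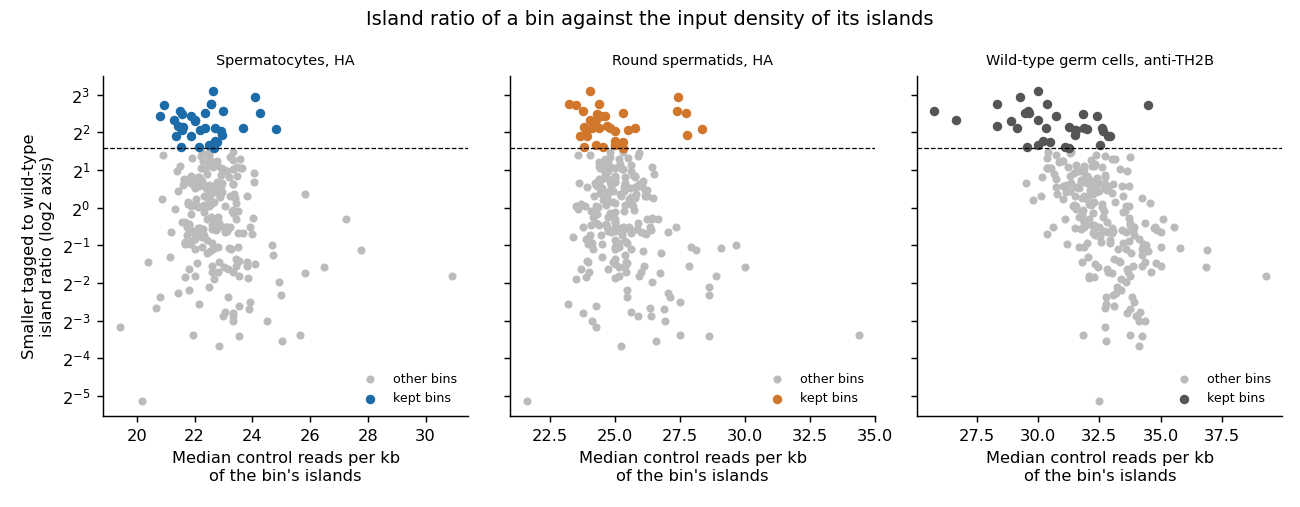
Smaller of the 2 tagged to wild-type island ratios of a bin (log2 axis) against the median control reads per kb of the bin's islands, in 1 panel a list, for 250 bins. Kept bins are coloured and lie at or above the dashed line at 3; the points slope down in the wild-type panel (r -0.587) and only slightly in the tagged panels (-0.179 and -0.261).

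In every list folds were higher in islands with fewer control reads, so folds were also read at like numbers of control reads, a comparison chosen after the values were seen. Wild-type islands of kept bins held fewer control reads, with a median of 73 beside 82, and 37.2% of them fell in the lowest quartile of their list, beside 25.1% of the others. Within the quartiles the medians in kept and other bins were 1.755 and 1.752 in the lowest, 1.51 and 1.49 in the second, 1.40 and 1.39 in the third and 1.308 and 1.310 in the highest. Each value for the other bins lay inside the interval of the kept bins. The gap of 1.52 against 1.45 was not seen at like numbers of control reads. Control reads are the denominator of the fold, so grouping by them holds much of the fold fixed. This comparison therefore cannot tell where the gap came from. In spermatocytes the pairs were 1.85 and 1.84, 1.55 and 1.56, 1.45 and 1.44, and 1.351 and 1.345. Round spermatid islands of kept bins were lower in the second quartile, at 1.49 (1.476 to 1.503) beside 1.51. Islands were also grouped by input density in place of control reads, again after the values were seen. Density is made of control reads too, so this grouping has the same limit. Wild-type medians in kept and other bins were 1.70 and 1.69 in the lowest quartile of density and 1.44 and 1.46 in the second. They were 1.40 and 1.38 in the third, but 1.41 (1.38 to 1.44) and 1.37 in the highest. In that quartile, with 111 islands of kept bins, the value for the other bins lay below the interval. The same was true of the second quartile of density in spermatocytes (1.53, 1.516 to 1.548, beside 1.51) and of the third (1.46, 1.44 to 1.47, beside 1.43), and of the third in round spermatids (1.416, 1.405 to 1.431, beside 1.402).

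**Figure D5:**
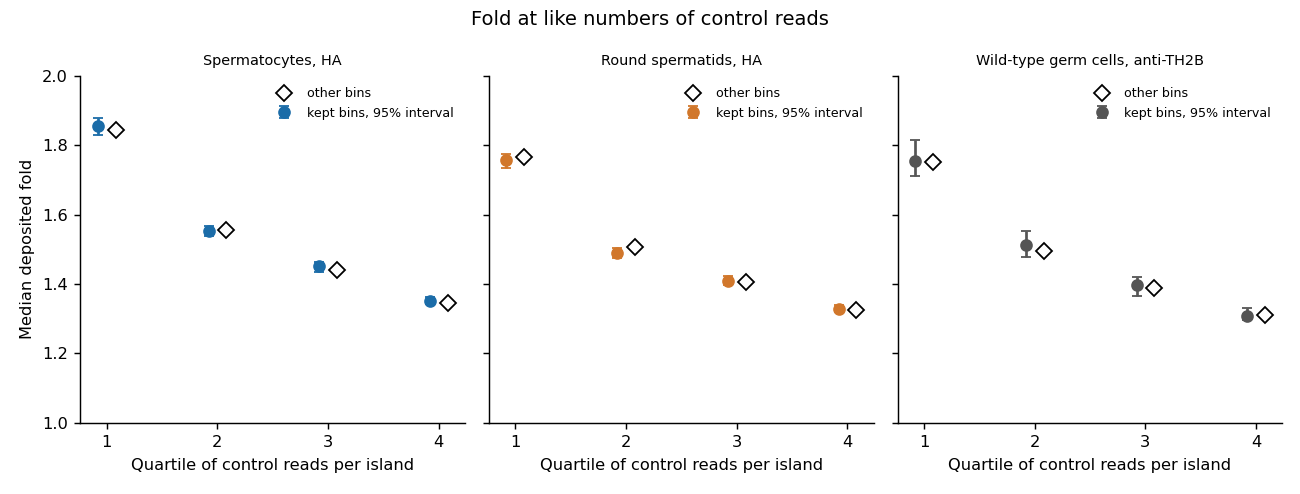
Median deposited fold of islands in kept bins (coloured circles with 95% intervals) and in all other autosomal bins (open diamonds), in each quartile of control reads per island, in 1 panel a list. Folds fall from the first to the fourth quartile in every panel, and in wild-type germ cells the kept and other bins differ by less than the interval in all 4.

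Kept bins were set beside 2 kinds of like bins. The first were 91 other bins in which tagged islands of both lists together covered at least 4.46%, the share of the least covered kept bin. They had medians of 78 spermatocyte, 84 round spermatid and 47 wild-type islands, beside 94, 86 and 18 in kept bins. Their wild-type islands had a median input density of 32.1 reads per kb (31.9 to 32.3) and a median fold of 1.47. The second were 32 other bins with 10 to 35 wild-type islands, as few as in the kept bins. They had medians of 42.5 spermatocyte, 52 round spermatid and 30 wild-type islands, an input density of 32.4 (31.9 to 32.7) and a fold of 1.47. Both kinds were denser in wild-type input than the kept bins, at 30.6. The 2 full bins of chromosomes 14 and 16 that the minimum of wild-type islands left out were not. Their 14 wild-type islands had a median density of 25.1 reads per kb, with a wide interval of 21.8 to 31.8 that holds 30.6. Tagged folds in these 2 bins had medians of 1.61 in spermatocytes and 1.56 in round spermatids.

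Overlap asks whether islands of different lists fell on the same places within these bins. Of the wild-type islands in kept bins, 137 of 672 shared at least 1 bp with a tagged island, 20.4% (17.4 to 23.6), beside 9.74% (9.23 to 10.3) in all other bins. Tagged islands covered 6.61% of the kept bins and 4.13% of the others, a difference that moves with the overlap. In the 91 other bins of like cover, with 5.95% of bases under tagged islands, the share was 15.5% (14.4 to 16.6). Cover in those 91 bins was still below the 6.61% of the kept bins. Islands of 1 library are not replicates, so the shares of 20.4% and 15.5% are descriptions and were not tested against each other. Spermatocyte islands were met by 81 wild-type islands, 12.1% (9.69 to 14.8), beside 4.69% in all other bins. Round spermatid islands were met by 66, 9.82% (7.68 to 12.3), beside 5.90%. Cover by each tagged list was also higher in kept bins, 3.66% beside 2.08% for spermatocytes and 3.36% beside 2.28% for round spermatids.

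Seen from the tagged side, few islands had a native partner. Of the spermatocyte islands in kept bins 80, or 2.35% (1.87 to 2.91), overlapped a wild-type island, beside 5.13% elsewhere, and of round spermatid islands 67, or 2.05% (1.60 to 2.601), beside 5.62%. Wild-type islands covered 0.503% of the bases here and 1.65% elsewhere, which moves with these shares. Between the tagged lists, 586 of the spermatocyte islands, 17.2% (15.9 to 18.5), overlapped a round spermatid island, beside 16.4% in other bins. In the other direction 584 did, 17.9% (16.6 to 19.3), beside 14.4% (13.8 to 14.99). The cover by the partner list moved with these shares. Round spermatid islands covered 3.36% of the kept bins and 2.28% of the others, and spermatocyte islands 3.66% and 2.08%, so cover differed by more than the overlap did. A tagged island without a partner in the other tagged list was the usual case in kept bins and in the other bins alike. It was not a trait of the kept bins. For spermatocyte islands the 16.4% of the other bins lay inside the interval of the kept bins, and for round spermatid islands the 14.4% lay below it.

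Among islands with 50 ChIP reads or more, those of highest fold were short and had thin input. Control reads are the denominator of the fold, so a choice by fold favours thin input in all 3 lists. In spermatocytes the first was chr16:88907401-88908600, where 63 ChIP reads stood against 12 control reads (fold 6.15, interval 3.29 to 12.5) at 10 control reads per kb. It was followed by chr3:24230801-24231600 with a fold of 4.98, chr1:29592001-29592800 with 4.43, chr10:109027201-109028400 with 4.27 and chr16:88619401-88621800 with 4.10. Only the chr1 island of these 5 overlapped a round spermatid island, and none overlapped a wild-type island. Both chr16 islands lay in the bin from 80 to 90 Mb, 286 kb apart.

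In round spermatids the first was chr6:10120401-10121600 with 68 ChIP and 16 control reads (fold 4.50, 2.58 to 8.32). Next were chr12:49379401-49380000 with 4.32, chr14:117372201-117373800 with 4.30, chr13:81820001-81822000 with 4.04 and chr3:71138401-71140200 with 3.79. The chr14 island overlapped a spermatocyte island. At chr13:81820001-81822000, the fourth of them, the round spermatid island overlapped a wild-type island.

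Among wild-type islands chr8:54523801-54524800 came first, with 69 ChIP and 12 control reads (fold 5.81, 3.12 to 11.8). The second, chr6:60896801-60897600, had a fold of 5.70 (2.98 to 12, 62 and 11 reads). The others were chr14:86804401-86806200 with 3.77, chr14:109711201-109712200 with 3.29 and chr8:64569801-64571000 with 3.21. Only the last overlapped a tagged island, of round spermatids. Control reads of these 5 islands ran from 12 to 20 per kb, below the median of 30.6 of wild-type islands in these bins, as the choice by fold favours.

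Folds of the longest islands ran from 1.07 to 1.5. In spermatocytes 3 islands of 10800 bp led, at chr3:29742401-29753200 (fold 1.23), chr1:104223201-104234000 (1.27) and chr10:109871601-109882400 (1.5). In round spermatids chr3:25413801-25457600 stood apart at 43800 bp, with a fold of 1.07 and 97.7 control reads per kb, far above the median of 25. The next, chr6:61108001-61120800 and chr1:102614401-102626800, were of 12800 and 12400 bp with folds of 1.20 and 1.34 at usual densities of 25.9 and 25.1 reads per kb. Wild-type islands reached 10000 bp at chr2:49507201-49517200 (fold 1.27), 8200 bp at chr8:67135001-67143200 (1.19) and 7200 bp at chr2:89808401-89815600 (1.30). The chr2:49507201-49517200 island lay in the Mb in which wild-type islands outnumbered tagged ones.

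Islands of all 3 lists at once held 8 places, in 7 of the kept bins, with a median of 1100 bp in common. No count of such places in other bins is given here, so 8 cannot be called few or many. None had a fold of at least 2 in all 3 lists. Wild-type islands had the highest of the 3 folds in 7 of the 8, with a median of 1.69, beside 1.35 in spermatocytes and 1.29 in round spermatids. Folds of different lists rest on different inputs and on stretches of different length, and this order is a description. The place with most reads was chr10:103629601-103636000, with folds of 1.27 in spermatocytes, 1.21 in round spermatids and 1.47 for the wild-type list, and 752 ChIP reads in all. It was followed by chr12:44204401-44212000 (1.37, 1.24 and 1.40), chr1:101606001-101611200 (1.27, 1.29 and 1.66), chr6:64078401-64084800 (1.36, 1.46 and 1.82) and chr1:106421801-106427000 (1.70, 1.29 and 1.71).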

How the data were processed

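Islands of 3 ChIP libraries (1 per group) were used. They were called with SICER on mm9, per the submitters' processing notes, with a 200 bp window and a 600 bp gap read from the names of the lists. Aligner, versions and read filters: not given in the sources used here. Per island the authors deposited counts of ChIP and control reads, a p-value and an FDR (below 0.01 throughout), and a fold, the ratio of the counts scaled by 1 constant per list. Each control was read as the input from the same cells. The labels speak of pooled fractions, read here as pooled within a cell type. Both tagged inputs have a title with an unexplained final 2.

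Ends were brought to 1 convention and positions count from 1. Bin lengths used mm9 sizes from GenomeInfoDb 1.38.1, and other values Python 3.11.15, numpy 2.4.6, pandas 2.3.3, scipy 1.17.1 and matplotlib 3.10.9. Shares have exact (Clopper-Pearson) and medians order-statistic 95% intervals. Ratios of counts have exact binomial intervals. Counting and overlap were checked on simulated lists. Named were every kept bin, the 5 nearest outside, in each list the 5 islands of highest fold (at least 50 ChIP reads) and the 3 longest, and the 5 places of all 3 lists with most reads. The bins, lists and rules were chosen with earlier results of these data known. Depth is known only inside islands. Without an mm9 annotation, the gene lists drawn up for such an annotation were not used.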

Additional observations from a re-analysis of the deposited data

How the results depend on the processing

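Of 92 alternatives, 67 left a value within its interval or a count within 1.5 times. Bins kept are given here with the number that met the minimum of wild-type islands. The 35 of 253 became 63 of 476 with 5 Mb bins (minimum 5) and 10 of 131 with 20 Mb bins (minimum 20). They became 14 of 226 with at least 20 wild-type islands, and 55 of 253 by covered base pairs, which held all 35. The cause was not tested. With equal numbers of islands 27 of 253 were kept, all among the 35. At an FDR of at most 0.0001 there were 25 of 229, of which 17 were among the 35. Within quartiles of control reads, the ratio of median folds in kept to other bins was 1.006, 0.997, 1.008 and 1.005 in spermatocytes (1.018 over all), 0.994 and 0.990 in the first 2 quartiles of round spermatids (1.003) and 1.001, 1.012, 1.005 and 0.999 for the wild-type list (1.047). Within quartiles of input density it was 1 in the lowest and 0.998 in the highest in spermatocytes, 1.010 in the third in round spermatids, and 1.006, 0.988 and 1.010 in the first 3 for the wild-type list, whose highest, at 1.031, stayed within the interval. The cause was not tested. The share with high fold, kept over other bins, was 1.27 in spermatocytes at a fold of 2, 1.09 at 1.5 and 1.78 at 3, and in round spermatids 1.11 at 2 and 1.44 at 3. When at least 50% of both islands had to be in common, overlap shares were 9.72% (spermatocytes with round spermatids) and 8.63% (wild-type with tagged), beside 8.89% and 4.28% in other bins, since fewer overlaps qualify. Leaving out each kept bin in turn changed no median fold, length or input density beyond its interval. Both kinds of quartiles, usual input density for overlaps, a fold of at least 1.5 for bins, and bins of like cover were chosen after seeing the data. Islands give no reads between them, so shallow enrichment and thin input there are out of reach.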
